A study of Mus musculus with 5 samples.

Results

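The peaks described here are H3K27ac peaks that lay deep inside long protein-coding genes. A peak was a member when it was on chromosomes 1 to 19, was narrower than 4000 bp, and had its summit inside a protein-coding gene and more than 50 kb from every end of every protein-coding gene. By this rule 2382 of the 22948 peaks in the deposited list were members, or 10.5% of the 22618 autosomal peaks. The cells were sorted from mouse bone marrow as CD45.2+, lineage-negative, Sca1+ and Kit+, and are labelled HSC/MPP, which stands for haematopoietic stem cells and multipotent progenitors. All libraries carried the genotype label Mll3/4 deleted, 4 of them H3K27ac libraries and 1 an input. How the deletion was made, the age of the mice and whether animals were pooled are not given in the sources used here. The deposited file is 1 list for the 4 H3K27ac libraries, in which every position, ratio and p-value is the authors'. It gives nothing per library and has no second genotype, so the values carry no replicate error and all differences are descriptions of this list without a test.

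H3K27ac is the acetylation of lysine 27 on histone H3, a mark of active promoters and active enhancers. Enhancers are stretches of DNA that bind transcription factors and raise the transcription of a gene from a distance, and many of them lie in the introns of long genes. Mll3 and Mll4 (Kmt2c and Kmt2d) are histone methyltransferases that act mostly at enhancers. ChIPmentation is chromatin immunoprecipitation in which the Tn5 transposase inserts the sequencing adapters while the chromatin is still bound. Mouse haematopoietic progenitors have several very long genes for transcription factors, while many of the longest genes of the genome encode neural adhesion and synapse proteins.

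Many long genes also have inner promoters, from which shorter transcripts of the gene start. Some of the peaks lay at such inner starts, so the 250 bases before an inner start are shown for the 4 genes with the strongest peaks there. Bach2 and Magi1 are shown beside them as genes with many deep peaks and none within 1 kb of their inner start. They are RefSeq sequences of GRCm38.p6, written 5′ to 3′ on the strand of the gene, with each CG dinucleotide in capitals.
Atxn7l1, chr12:33314047-33314296, plus strand: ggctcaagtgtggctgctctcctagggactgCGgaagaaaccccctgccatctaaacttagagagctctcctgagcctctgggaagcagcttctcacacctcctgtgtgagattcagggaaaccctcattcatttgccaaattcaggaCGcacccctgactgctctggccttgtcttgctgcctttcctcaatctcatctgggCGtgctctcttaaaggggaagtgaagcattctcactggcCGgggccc
Tnrc6b, chr15:80798360-80798609, plus strand: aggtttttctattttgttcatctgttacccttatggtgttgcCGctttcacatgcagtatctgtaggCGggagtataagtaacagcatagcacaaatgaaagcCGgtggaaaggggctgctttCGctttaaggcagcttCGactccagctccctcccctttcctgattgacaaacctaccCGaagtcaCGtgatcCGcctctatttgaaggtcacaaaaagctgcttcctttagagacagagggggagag
Ssh2, chr11:77348030-77348279, plus strand: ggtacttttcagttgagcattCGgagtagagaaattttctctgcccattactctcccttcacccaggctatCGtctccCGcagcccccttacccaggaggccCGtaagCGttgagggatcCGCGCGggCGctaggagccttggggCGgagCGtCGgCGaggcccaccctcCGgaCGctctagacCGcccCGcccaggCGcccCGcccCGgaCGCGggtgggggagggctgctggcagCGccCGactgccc
Sorbs2, chr8:45627501-45627750, plus strand: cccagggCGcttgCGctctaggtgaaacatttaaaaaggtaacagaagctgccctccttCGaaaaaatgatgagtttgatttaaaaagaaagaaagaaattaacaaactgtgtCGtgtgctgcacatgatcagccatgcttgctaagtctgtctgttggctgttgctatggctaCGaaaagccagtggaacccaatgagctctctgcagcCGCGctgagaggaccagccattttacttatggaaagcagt
Bach2, chr4:32417185-32417434, plus strand: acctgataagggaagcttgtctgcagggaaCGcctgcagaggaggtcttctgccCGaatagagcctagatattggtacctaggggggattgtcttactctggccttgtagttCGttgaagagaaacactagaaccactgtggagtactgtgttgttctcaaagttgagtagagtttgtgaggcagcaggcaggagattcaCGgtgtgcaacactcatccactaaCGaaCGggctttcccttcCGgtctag
Magi1, chr6:93912964-93913213, minus strand: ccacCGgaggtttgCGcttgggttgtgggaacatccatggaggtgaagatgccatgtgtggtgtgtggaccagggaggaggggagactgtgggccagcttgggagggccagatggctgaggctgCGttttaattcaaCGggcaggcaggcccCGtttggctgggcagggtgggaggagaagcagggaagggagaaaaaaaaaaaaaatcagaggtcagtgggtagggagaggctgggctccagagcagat

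The sort was checked against genes of its surface proteins by a peak within 1 kb of either gene end. Among genes for proteins found on stem cells and early progenitors, Ptprc (signal value 10.8), Flt3 (6.58), Kit (5.66) and Slamf1 (3.21) had such a peak, and Ly6a, which encodes Sca1, Cd34 and Procr had none. Among genes of mature lineages, the haemoglobin gene Hbb-bt (3.92) had one, and Cd3e, Cd8a, Ms4a1, Itgam and Ly6g had none. The signal value is the authors' enrichment ratio of H3K27ac over background at the peak. The depth of the libraries is unknown, and the absence of a peak does not show that the mark was absent.

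Foxp1 held the most members under the rule used here, but not under every alternative. Arid1b came first when peaks needed a q-value of at most 0.05, as 78.8% of the whole list had (32 against 30 in Foxp1), and Ebf1 came first, with Foxp1 the fifth, when distance was taken from genes of every kind. Foxp1 encodes a forkhead transcription factor used in early B-cell development, lies at chr6:98925342-99522746 and held 55 members. It was followed by Arid1b, a subunit of the BAF chromatin remodelling complex (chr17:4994297-5347656), with 44, and by Bach2, a transcriptional repressor of the B lineage (chr4:32238413-32586109), with 36. Msi2, an RNA-binding protein that supports blood stem cells (chr11:88339382-88718306), held 34. Ebf1, a transcription factor that sets up the B-cell programme (chr11:44618100-45008096), held 33. These 5 genes together held 202 members, or 8.48% of all. The −log10 p of the listed peaks began at 2.01, so the list held peaks with a q-value above 0.05, and 62.9% of the members had one of at most 0.05.

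The next 10 genes were of mixed function. Sipa1l1, which acts on the small GTPase Rap, and Magi1, a scaffold protein of cell junctions, held 24 each. Tcf4, an E protein of the B and dendritic cell lineages, held 22. The corepressor gene Rere and Elmo1, a partner of Dock proteins in Rac activation, held 21 each. Sgms1, a sphingomyelin synthase, held 20, Vps13d, a lipid transfer protein, held 19, and Ltbp1, which binds latent TGF-beta, held 18. The splicing regulator Celf2 and the adaptor Nedd9 had 17 each. The 15 genes held 17.0% of the members on 1.34% of the sequence that could hold one.

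**Figure D1:**
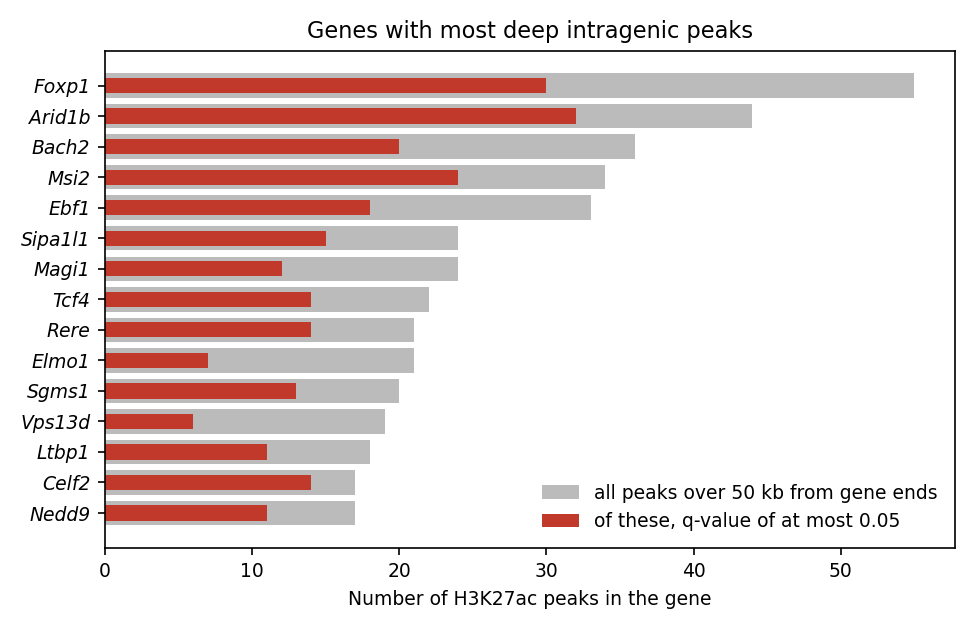
Horizontal bars give the number of deep intragenic H3K27ac peaks in each of the 15 genes with most of them (grey) and how many of these had a q-value of at most 0.05 (red). Foxp1 leads with 55, and Arid1b has the most with a q-value of at most 0.05, 32 of 44.

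Sequence that could hold a member, called deep interior here, is the part of gene bodies more than 50 kb from every protein-coding gene end. It came to 343 Mb, or 34.9% of all autosomal gene body sequence, in 2200 of 20665 autosomal protein-coding genes. Members lay in 665 of the 2200 genes, which is 30.2% (95% Wilson interval 28.3% to 32.2%). Intervals of this kind cover counting error over genes or peaks and say nothing about replicate libraries. Of the 665 host genes, 279 held 1 member, 236 held 2 to 4, 93 held 5 to 9 and 57 held 10 or more. The 99 genes with most members held 50% of them. One summit lay in both Oprm1 and Ipcef1 and was counted for each.

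Longer genes did not hold more members per Mb. Genes with over 400 kb of deep interior held 2.63 members per Mb of it, those with 200 to 400 kb held 7.13, those with 100 to 200 kb held 12, those with 50 to 100 kb held 13.7 and those with up to 50 kb held 14.9. The share of genes that hosted any member did rise with length at first: it was 16.7% up to 50 kb, 31.9% from 50 to 100 kb, 44.3% from 100 to 200 kb, 41.9% from 200 to 400 kb and 38.9% above 400 kb. Among the 516 genes with at least 200 kb of deep interior, 210 hosted a member and the median was 0. Per Mb, the densest of these genes were Arid1b with 174 members, Bach2 with 145, Msi2 with 122, Ebf1 with 114 and Foxp1 with 111. Tcf4 (90.0), Rere (87.3), Ltbp1 (62.7), the homeobox gene Cux1 (54.7) and Elmo1 (50.3) completed the first 10, against 6.94 per Mb over the whole deep interior.

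Genes that encode lymphoid transcription factors were often hosts. Of 26 such genes, 19 had deep interior and 14 of these (73.7%, Wilson interval 51.2% to 88.2%) hosted a member, against 30.2% of all genes with deep interior. Length was not matched in this comparison, and by length class the share of all genes ran from 16.7% to 44.3%. They held 187 members at 55.2 per Mb, with a median of 3 per gene against 0 over all genes. Beyond Foxp1, Bach2, Ebf1 and Tcf4, Pax5, which fixes B-cell identity, held 13 members in 85.9 kb of deep interior, and Aff3 held 6. Ets1, a factor of lymphoid cells, held 3 in 21.6 kb. The nuclear receptor gene Rora held 4, while Mef2c, Runx2 and Lef1 held 1 each. Ikzf2, Elf1, Zeb1, Zeb2 and Tox2 had deep interior and no member. The marker genes reported above do not settle whether B-lineage cells were present, and the part of mature or committed B cells in these counts was not tested.

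As whole lists, the stem and progenitor factors and the signalling genes of blood cells held fewer members per Mb than the lymphoid factors. Most of the 187 lymphoid members lay in Foxp1, Bach2, Ebf1, Tcf4 and Pax5, at 90.0 to 151 per Mb. The other lymphoid genes held at most 6 members each, at 0 to 139 per Mb. Whether the order of the lists holds without those leading genes was not tested. Of 25 stem and progenitor genes with deep interior, 15 (60.0%, 40.7% to 76.6%) hosted 123 members, at 27 per Mb. Msi2 held 34 of them, Zbtb20 12, Nfia 11, Zmiz1 11 and Etv6 10. The ETS factor genes Erg and Fli1 held 6 and 5, and Runx1, a master factor of blood formation, held 7. Mecom, needed by long-term stem cells, held 1 member in 458 kb, with a signal value of 2.57, and Prdm16, Meis2, Setbp1 and Angpt1 held none. Of the 36 signalling genes with deep interior, 23 (63.9%, 47.6% to 77.5%) hosted 123 members at 14 per Mb. Elmo1 held 21, the Src-family kinase gene Fyn 12, Lpp 12 and the phosphodiesterase gene Pde4d 10, while Arhgap15, Plcb1 and Rabgap1l held none.

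Long neural genes were the sparsest list. All 40 had deep interior, 46.8 Mb in sum, and 9 (22.5%, 12.3% to 37.5%) hosted 19 members, or 0.406 per Mb. Magi2, a synaptic scaffold gene, held 10 of the 19. Dab1 held 2, and Ctnna2, Robo2, Kcnip4, Asic2, Nrxn3, Dlg2 and Gpc5 held 1 each. The longest deep interiors without a member belonged to Ptprd (2171 kb), Cntnap2 (2141 kb), Lrp1b (1958 kb), Lsamp (1897 kb) and Macrod2 (1784 kb). The lists were chosen with earlier results of these data known, so their order is a description.

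**Figure D2:**
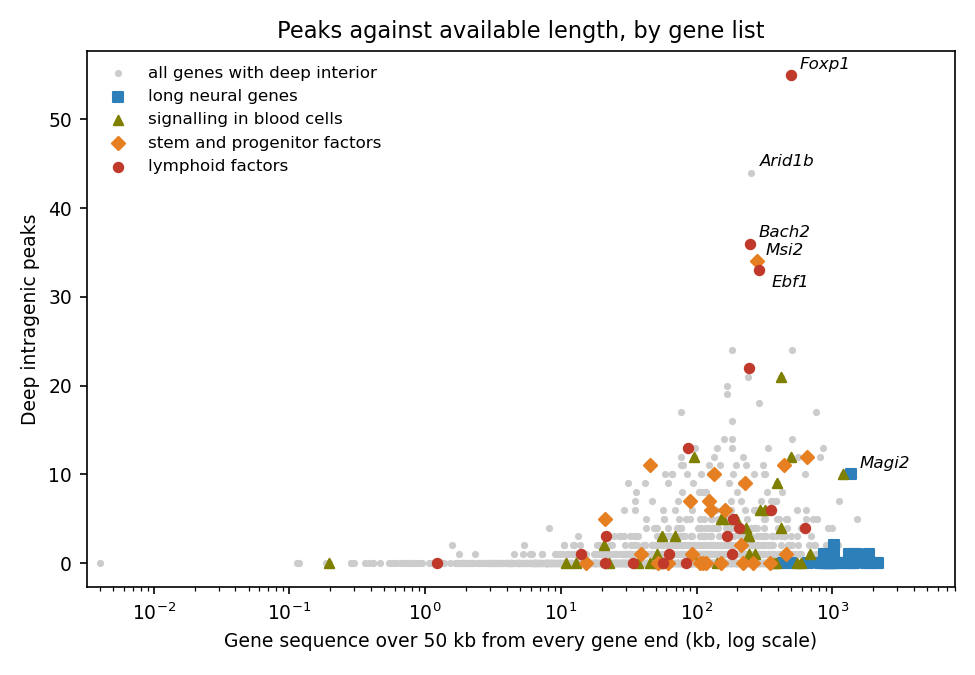
Each point is a gene with deep interior; the x axis gives its sequence more than 50 kb from every protein-coding gene end (kb, log scale) and the y axis its number of deep intragenic peaks. Grey dots are genes outside the lists, orange diamonds stem and progenitor factors and green triangles signalling genes; lymphoid factor genes (red circles) include Foxp1, Bach2 and Ebf1 at 33 to 55 peaks, while the 40 long neural genes (blue squares) have at most 10.

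Members had lower signal values than the other classes of peaks. Their median signal value was 2.78 (exact binomial interval of the median 2.75 to 2.81, interquartile range 2.48 to 3.39). It was 2.97 (2.94 to 3.00) for the 8082 peaks inside a gene at 1 to 50 kb from an end and 4.25 (4.22 to 4.31) for the 7287 peaks within 1 kb of a gene end. A signal value of at least 4 was reached by 14.6% of members (13.2% to 16.1%), 24.2% of the nearer intragenic peaks and 56.2% of peaks at gene ends. The 62.9% of members with a q-value of at most 0.05 were 1499 peaks (61.0% to 64.8%), against 72.7% of the nearer intragenic peaks and 92.5% of those at gene ends. A −log10 q of at least 5 was reached by 396 members, or 16.6%, against 36.1% of the list. At both q thresholds the share of members was below that of the list.

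Those other classes had no width limit, while the members had one, and signal and width rose together across members (Spearman's rank correlation 0.64, n = 2382, across peaks of 1 list). With the same limit of 4000 bp on every class, a comparison chosen after the data were seen, the median signal value was 2.94 (2.90 to 2.97) for the 7808 nearer intragenic peaks and 4.22 (4.17 to 4.28) for the 7156 peaks at gene ends. A q-value of at most 0.05 was then attached to 71.7% and 92.4% of them. The median width of members was 761 bp (731 to 789 bp), a value that the width limit helped to set. Under that limit it was 805 bp (790 to 823 bp) for the nearer intragenic peaks and 791.5 bp (769 to 815 bp) for peaks outside genes, whose interval overlapped that of the members. The widest member measured 3969 bp. A further 77 deep peaks, the narrowest 4018 bp wide, were left out by the width limit, and their median signal value was 6.49. At the distance limit the nearest members lay 50012 and 50016 bp from a gene end (signal values 3.36 and 2.42), and the nearest peaks left out lay 49997 and 49989 bp away (2.69 and 3.12).

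Members were sparser farther from the nearest gene end, at much the same signal value. Members occurred at 10.9 per Mb between 50 and 75 kb from the nearest end, at 9.49 between 75 and 100 kb, at 8.23 between 100 and 150 kb, at 3.81 between 150 and 250 kb and at 1.43 beyond 250 kb. Inside genes at 1 to 50 kb the list held 13.5 peaks per Mb. Sequence far from every end lies only in long genes, so distance and gene length cannot be told apart here. By distance from the host's start end, where strand was known, the same steps held 11.9, 10.5, 11.6, 7.41 and 3.49 members per Mb. By distance from its other end they held 11.2, 12.4, 10.7, 7.38 and 3.60. The median signal value lay between 2.69 and 2.82 in the 5 distance classes, whose intervals overlapped. Across members, signal value and distance had a Spearman rank correlation of 0.0031 (n = 2382). Members were somewhat less crowded than nearer intragenic peaks. Another peak summit lay within 12 kb of 67.7% of members (65.8% to 69.5%), against 71.6% of the nearer ones (70.6% to 72.5%). The share was 55.3% for the autosomal peaks outside genes and over 1 kb from a gene end. The median distance to the nearest peak was 4.0 kb (3.5 to 4.5 kb) for members and 3.0 kb (2.8 to 3.2 kb) for nearer intragenic peaks.

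Members were spread evenly between the start side and the other side of the genes. Strand was known for 530 of the 665 hosts, with 1959 members. Of these, 995 (50.8%, 48.6% to 53.0%) lay nearer the start end (the start side), at 7.5 per Mb, and 964 nearer the other end, at 7.32 per Mb. Median signal values were 2.81 and 2.78. Of the 119 such hosts with 5 or more members, 54 had most of them on the start side and 54 on the other side.

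Within single genes the layout differed. In Foxp1 the 55 members ran from 82.9 to 541 kb after the start end, with no gap over 31.7 kb, and 27 of them lay on the start side. The strongest had a signal value of 5.42 and lay at chr6:99187489-99190503. In Bach2, 29 of 36 members lay on the start side of the midpoint, and 27 of them fell between 57.2 and 156 kb from the start. None of the Bach2 members had a signal value over 3.85. Ebf1 was the reverse, with 7 of 33 members on the start side and 20 between 218 and 315 kb; the strongest, at chr11:44878865-44881309, had a signal value of 4.25.

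Arid1b and Msi2 had stronger members. Arid1b had 22 of 44 on the start side, a group of 21 between 52.3 and 114 kb, and its strongest member at chr17:5293578-5297387 (6.12). Msi2 had 23 of 34 on the start side, and the strongest members lay at chr11:88612397-88615822 (7.47) and chr11:88597745-88600476 (6.70). Rere had 5 of 21 on the start side and its strongest at chr4:150569435-150571707 (6.40). Celf2, the longest of the 15 genes at 857 kb, had 5 of 17 on the start side and a gap of 209 kb between members. Nedd9, the shortest at 177 kb, had only 77.4 kb of deep interior. Its 17 members lay 50.5 to 127 kb from the start end, a range set by the distance rule.

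**Figure D3:**
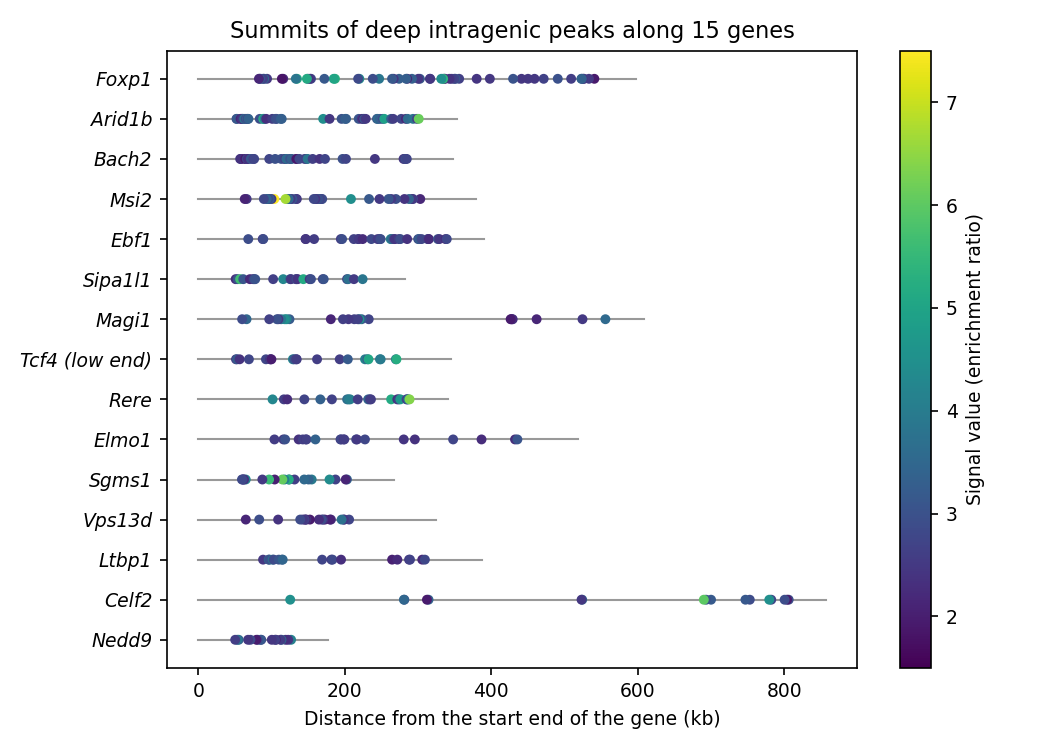
Grey lines show the 15 genes with most deep intragenic peaks, to scale, from the start end (0) to the other end in kb; points are peak summits, coloured by signal value. Tcf4 is drawn from its low-coordinate end because its strand was not used here; the Ebf1 peaks gather away from the start and the Bach2 peaks near it.

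The number of strong members gave another order among the 15 genes. Of members with −log10 q of at least 5, Foxp1 and Sgms1 held 7 each, Arid1b, Tcf4 and Rere 6 each, and Msi2 and Magi1 4 each. Ebf1 and Vps13d held 1 each, and Bach2, Elmo1 and Ltbp1 held none. As a share of its own members, no list was above the 16.6% of all members. The lymphoid factors had 21 of 187 past this limit (11.2%), the stem and progenitor factors 19 of 123 (15.4%), the signalling genes 15 of 123 (12.2%) and the long neural genes 1 of 19 (5.26%). At a q-value of at most 0.05 the shares were 58.8%, 69.9%, 63.4% and 57.9% in the same order, against 62.9% of all members.

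Under the width limit, the strongest single members lay in genes with few of them. The first was at chr3:126691730-126695175 in Camk2d, a calcium/calmodulin-dependent kinase gene, with a signal value of 13.0 (−log10 q 53.0); it lay 98.1 kb from the start end and was the strongest of 5 members. Next came chr13:45870923-45873524 in Atxn1 (11.5), chr8:108886770-108888240 in Zfhx3, a zinc finger homeobox gene (11.1), and chr18:84291813-84295653 in Zfp407 (11.1). Atxn7l1 had one at chr12:33301547-33304979 (10.6), the transcriptional coactivator gene Ppargc1a one at chr5:51551119-51554436 (10.5) and Sox6 one at chr7:115615215-115616858 (10.3). The other three were in Spata5 (9.83), Cradd (9.64) and the orphan nuclear receptor gene Nr6a1 (9.62). Zfhx3, Spata5 and Nr6a1 held no other member. The width limit helped to set this order, as it left out other strong deep peaks. The strongest of those were in Erg (16.4), Maml2 (13.6), Sptbn1 (12.3) and Jmjd1c (12.2). These genes held 6, 10, 6 and 1 members. Only 17 members were among the 1000 autosomal peaks with the highest signal value.

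Host genes more often had a peak at their start end. The start end had a peak within 1 kb in 47.4% of the 530 hosts with known strand (Wilson interval 43.1% to 51.6%), against 27% (24.5% to 29.6%) of the 1172 genes with deep interior and no member and 36.6% of all autosomal protein-coding genes with known strand. The share was 38.1% for hosts of 1 member, 48.7% for 2 to 4, 56.3% for 5 to 9 and 70.8% (56.8% to 81.8%) for 10 or more. Median gene length rose as well, from 157 kb without a member to 319 kb with 10 or more, and its part in the trend was not tested. At the other end a peak was found in 3.40% of hosts and 3.16% of genes without a member. Over the 394 genes with at least 200 kb of deep interior and known strand, members per Mb and the signal value at the start had a Spearman rank correlation of 0.36, across genes of 1 list.

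Among the genes with most members, the start-end signal value was 12.4 in Ebf1, 11.0 in Foxp1, 9.0 in Magi1, 8.56 in Nedd9, 7.96 in Arid1b, 6.86 in Msi2 and 6.73 in Bach2. Sgms1, Ltbp1 and Celf2 had no peak there, and neither did Ablim1 with 16 members or Mast4 with 14. In all, 14 of the 48 hosts of 10 or more with known strand had none, among them Nfia, Fbxl17, Sash1, Prkca, Map3k5, Pde4d, Mical3, Vav2 and Magi2. This holds for the outermost start only. Celf2 had a peak at 3 of 3 starts in its deep interior, and Sgms1 and Ltbp1 at 1 of 1 each. Mical3 and Sash1 also had a member at an inner start.

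**Figure D4:**
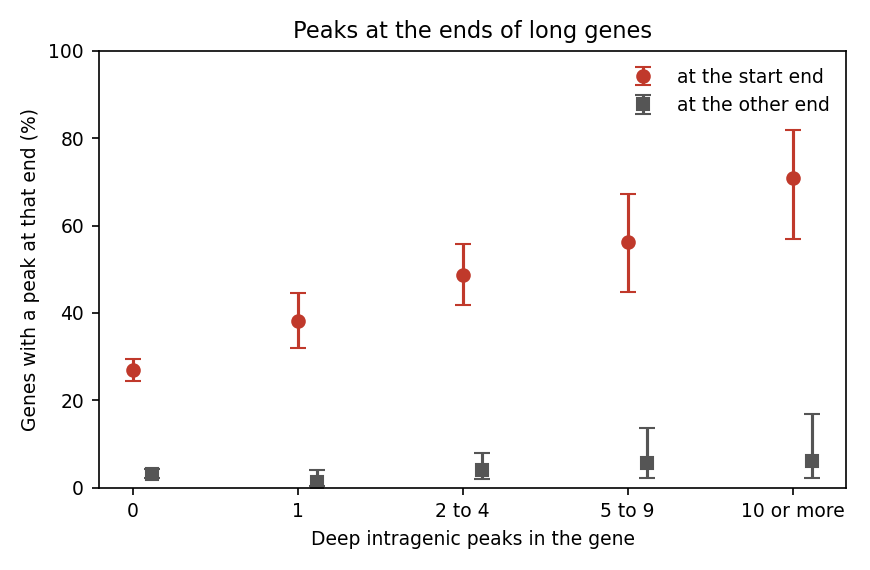
Points give the percentage of long genes that had a peak within 1 kb of their start end (red circles) or other end (grey squares), grouped by their number of deep intragenic peaks; bars are 95% Wilson intervals over genes. The start-end share goes from 27% with 0 peaks to 70.8% with 10 or more, and the other end stays below 7% in every group.

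Some members lay at transcript starts inside the host gene. RefSeq listed 387 starts of the host gene itself in the deep interior of 288 genes. A member summit lay within 1 kb of 49 of them (12.7%, 9.71% to 16.3%), and 26 more had another peak within 1 kb, such as a wide one. Members occurred at 67.3 per Mb in the 1 kb on either side of these starts, against 6.70 per Mb of deep interior away from all starts. Starts of other genes inside the host were mostly those of long non-coding RNAs, and 24 of 653 (3.68%, 2.48% to 5.41%) had a member. On chromosome 18 no starts were used, so these counts rest on 2286 members.

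The 4 printed windows with a member differed widely in CG content, with 24 CG dinucleotides in Ssh2, a cofilin phosphatase gene, 8 in Tnrc6b of the microRNA silencing pathway, 7 in Sorbs2 and 4 in Atxn7l1. Bach2 had 7 and Magi1 had 5. Over whole windows of 300 bases, the median was 8 CG dinucleotides (interquartile range 5 to 19) at the 49 inner starts with a member, 6 (4 to 12) at the 312 with no peak within 1 kb, and 14 (4 to 25) over all autosomal protein-coding windows. The letters GGGCGG, searched on both strands, occurred in 32.7% of windows with a member, 25% of those with no peak and 47.0% of all protein-coding windows. The letters CCGGAAG occurred in 2.04%, 1.92% and 11.9% on both strands, and TATAAA in 8.16%, 11.5% and 12.7%. Stretches matching GGGCGG also count towards the CG dinucleotides and can overlap a CCGGAAG match. A match is a description of letters and not a bound site.

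Members at inner starts had higher signal values than the others. The 49 members at a start of their own host had a median of 4.10 (3.52 to 4.44), the 25 at a start of another gene 3.46 (2.85 to 5.39) and the 2212 at no start 2.78 (2.75 to 2.79). A signal value of at least 4 was reached by 55.1% (41.3% to 68.1%), 40.0% (23.4% to 59.3%) and 13.4% (12.1% to 14.9%) of them. Starts of either kind were still a minority among strong members: they accounted for 15 of the 100 strongest and for 3.24% of all.

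Single genes showed inner starts marked with and without the outer one. The members at inner starts were at chr12:33313922-33316990 in Atxn7l1 (signal value 9.18), chr15:80798554-80801459 in Tnrc6b (8.02), chr11:77348383-77350442 in Ssh2 (7.84) and chr8:45627107-45628220 in Sorbs2 (7.68). In Atxn7l1, Tnrc6b and Ssh2 the outer start end also had a peak, with signal values of 3.58, 6.27 and 5.08. In Sorbs2 it had none, and the same held for the splicing kinase gene Srpk2 (inner peak 6.64), Nt5c2 (6.03), Ripor2 (5.29), Arhgef3 (5.14), the thyroid hormone receptor gene Thrb (4.44), Sgms1 (4.41) and Dst (4.31), among others. Of 41 genes with a member at an inner start, 19 had a peak at the outer start end and 22 had none.

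**Figure D5:**
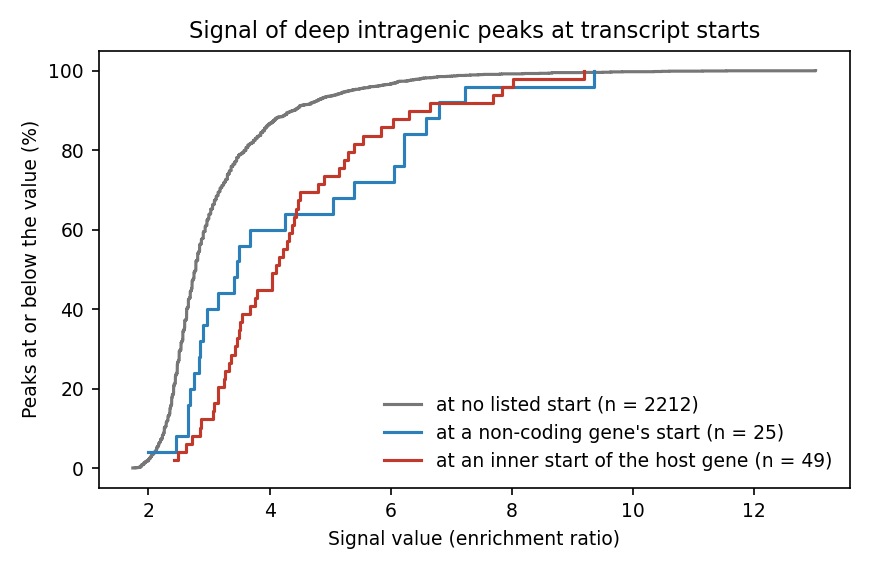
Cumulative curves give the percentage of deep intragenic peaks at or below each signal value (enrichment ratio, x axis), for 49 peaks within 1 kb of an inner start of the host gene (red), 25 at a start of another gene inside it (blue) and 2212 at no listed start (grey). The red and blue curves lie to the right of the grey one over most of the range, with medians of 4.10, 3.46 and 2.78.

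Starts of long non-coding RNAs inside a host gave a smaller group. Its strongest peaks were at 4833439F03Rik inside 2900026A02Rik (chr5:113135317-113138561, signal value 9.36), LOC102643083 inside Ldlrad3 (7.22) and Gm30050 inside Mast4 (6.79). Kcnq1ot1, the imprinted antisense RNA that starts inside Kcnq1, had a member at chr7:143293684-143296483 with a signal value of 3.40.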

How the data were processed

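The deposited list holds 22948 H3K27ac peaks called over input for 4 libraries together. The submitters' processing notes name BWA, MACS2 and mm10, with no settings. No header names the columns; by the order usual for such lists, the deposited signal value was taken as an enrichment ratio over background. The deposited p and q columns were taken as −log10 of a p-value or q-value, and the deposited score was not used. Genes, strands and start windows came from RefSeq tables of GRCm38.p6, the assembly of mm10, with 21887 protein-coding genes. The tables give no exons, so peaks were not assigned to exons, introns or UTRs. Start windows reach from 250 bases before to 50 bases after a start, and the start end of a gene is its 5′ end by strand. Scripts ran in Python 3.11.15 with pandas 2.3.3 and scipy 1.17.1 and were tested on simulated data.

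The members, the gene lists and the naming rule were chosen with earlier results of these data known. Named genes were the 15 with most members, the hosts of the 10 strongest, the 10 with most per Mb among genes with at least 200 kb of deep interior, and genes of the lists; others, such as those at inner starts, were chosen after their values were seen. Lists of surface markers, lymphoid factors, stem and progenitor factors, signalling genes and long neural genes were used. Alternatives were other distances, all gene kinds, stricter q-values, no width limit and merged peaks. Some genes of the marker lists are not reported here.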

Additional observations from a re-analysis of the deposited data

How the results depend on the processing

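Of 42 recomputed values, 18 moved by less than their interval, or by at most 1.5 times for counts, and 24 moved more. The main values were 2382 members, 665 hosts, 13.2% of members in the 10 genes with most, 6.94 members per Mb, a median signal value of 2.78 and 49.3% of hosts with a peak at an end.

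At 30 kb there were 3942 members in 1113 hosts, with 9.31% in the 10 genes with most and 8.53 per Mb. At 100 kb there were 915 members in 273 hosts, with 21.6% in the 10 genes, 4.53 per Mb and 41.8% of hosts with a peak at an end. With distance taken from genes of every kind, 1182 members in 384 hosts were left, 17.2% of them in the 10 genes, at 5.67 per Mb. With a q-value of at most 0.05, 1499 members at 4.37 per Mb had a median signal value of 3.18. With −log10 q of at least 5, 396 members in 261 hosts at 1.15 per Mb had a median signal value of 4.77, and 34.5% of hosts had a peak at an end that also passed. After merging peaks within 1 kb, the 10 genes held 10.3%, at 5.10 per Mb, with a median of 2.84. Without a width limit no value moved beyond its interval. Each setting keeps other peaks or another amount of sequence; beyond that, the cause was not tested.

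Foxp1, Arid1b, Bach2, Msi2 and Ebf1 were the first 5 genes in 5 of the 7 alternatives, in varying order; with genes of every kind the order was Ebf1, Bach2, Sgms1, Sipa1l1 and Foxp1, and at the −log10 q limit of 5 it became Foxp1, Sgms1, Arid1b, Rere and Tcf4. Foxp1 was first in 5 of the 7 and behind Arid1b with a q-value of at most 0.05. Of the main 15 genes, 6 to 14 were among the first 15. No H3K27ac library could be left out in turn, as the deposited values are joint ones. No paired analysis was possible because all replicates share these joint values. The depth is unknown, so how many weak members deeper libraries would keep was not measured.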

Other observations

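The member farthest from any protein-coding gene end was in Fhit, a gene at a chromosomal fragile site, at chr14:10285633-10286047, 736 kb from the nearest end, with a signal value of 2.48 (−log10 q 0.80, short of a q-value of 0.05). Next came a pair in Magi2, 644 and 643 kb away (2.08 and 2.35), and 1 in Nrxn3, 615 kb away (2.69). A member at chr13:109229744-109230983 in Pde4d, 576 kb from an end, had a signal value of 2.94.

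Among the wide peaks deep inside genes, which the width limit left out, the widest was in Erg, the gene of an ETS factor of blood stem cells. Its 3 such peaks were 18950, 10740 and 10642 bp wide, with signal values of 8.14, 16.4 and 9.77, beside 6 members. Foxp1 had more of them, 5 peaks of 4556 to 7337 bp with signal values from 3.87 to 8.94.

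Members per Mb of deep interior ranged over the autosomes from 4.66 on chromosome 8 to 14.6 on chromosome 17, where Arid1b held 44 of the 176 members. On the X chromosome, which was not part of the set, 6 peaks met the other conditions.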
